A study of Mus musculus with 12 samples.

Results

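The 10 genes described here, Piezo2, Ldhb, Epsti1, Pmp22, Iqgap2, Tc2n, Gpr153, Arrdc4, Zfp979 and Ngfr, were selected on a wide measured difference in transcript level between wild-type and integrin β3 knockout-labelled 4T1 cells, many of them being near absent in 1 of these lines. They are 10 of the 40406 entries left in the count table after removal of exact repeats. All 10 were among the 15538 genes that passed the filter on low counts, and a gene that passed only through the line in which it is high had to differ between the lines. The selection used the contrast between the lines, so that contrast is given below as a description of the members, without a test. The effect of docetaxel within each line, and the difference between the docetaxel effects, was tested.

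The 4T1 line is a triple-negative mammary carcinoma of BALB/c mice. RNA was sequenced in 4 groups of 3 libraries, from biological triplicate cultures per the labels. These were wild-type cells given the solvent DMSO (WT-DMSO), wild-type cells given docetaxel (WT-DTX), and cells labelled integrin beta 3 knockout given DMSO (KO-DMSO) or docetaxel (KO-DTX). Docetaxel, a taxane that stabilises microtubules, was present at 10 nM for 24 h, and both treatments were followed by 48 h in drug-free medium. All cells grew on dishes coated with poly-L-lysine. The method of the knockout, and whether the line is 1 clone, are unstated in the labels.

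The members come from different gene families. Piezo2 is a mechanically gated cation channel best known from touch receptors and sensory neurons, and Ngfr is the p75 neurotrophin receptor, a marker of neural crest and of mammary myoepithelial cells. Ldhb encodes the heart-type subunit of lactate dehydrogenase, which forms tetramers with the Ldha subunit, and Epsti1 encodes an interferon-induced protein. Pmp22 is a tetraspan membrane protein of peripheral myelin, Iqgap2 a scaffold that binds Rac1, Cdc42 and calmodulin, Tc2n a protein with tandem C2 domains and Gpr153 an orphan G protein-coupled receptor. Arrdc4 is an α-arrestin whose transcription, like that of its relative Txnip, is known to follow glucose through Mondo transcription factors, and Zfp979 is a KRAB zinc finger gene, of the class that recruits the corepressor Trim28 to DNA.

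Promoter sequences are shown because a gene that is near absent in 1 line may have a CpG-rich or a CpG-poor promoter, and the members had both. RefSeq (GRCm38.p6) listed start sites for 9 of the 10 members, Piezo2 not among them, and the 250 bases before each start were read in 14 windows. A window was called island-like at a GC content of at least 50% and a ratio of observed to expected CpG of at least 0.6. This held for 6 of the 14 member windows and for 31.0% of all 32851 windows of this length, from 27025 genes. Iqgap2 and Ldhb, high in opposite lines, are shown as CpG-rich examples and Epsti1 as a CpG-poor one, with every CG in capitals. The sequences run 5′ to 3′ and end at the base before the start. The windows are chr13:95891923-95892172 on the minus strand for Iqgap2, chr6:142507958-142508207 on the minus strand for Ldhb and chr14:77903989-77904238 on the plus strand for Epsti1.
Iqgap2: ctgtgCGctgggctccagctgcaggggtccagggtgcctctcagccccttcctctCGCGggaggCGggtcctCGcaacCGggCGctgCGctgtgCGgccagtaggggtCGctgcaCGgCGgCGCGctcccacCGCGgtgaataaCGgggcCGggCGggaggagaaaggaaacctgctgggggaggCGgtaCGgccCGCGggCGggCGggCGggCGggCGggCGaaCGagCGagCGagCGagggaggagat
Ldhb: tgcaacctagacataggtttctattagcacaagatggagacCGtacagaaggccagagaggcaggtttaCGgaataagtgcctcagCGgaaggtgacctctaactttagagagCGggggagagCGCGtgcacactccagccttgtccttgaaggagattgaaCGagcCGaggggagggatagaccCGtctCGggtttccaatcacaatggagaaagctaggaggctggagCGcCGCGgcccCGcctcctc
Epsti1: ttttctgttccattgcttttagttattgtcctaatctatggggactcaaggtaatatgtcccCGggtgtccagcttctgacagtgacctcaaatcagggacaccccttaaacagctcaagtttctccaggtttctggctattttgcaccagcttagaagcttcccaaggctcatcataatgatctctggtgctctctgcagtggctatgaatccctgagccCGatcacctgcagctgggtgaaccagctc

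The Iqgap2 window held 33 CG dinucleotides at an observed to expected ratio of 0.978, and the Ldhb window held 14 at 0.717. The Epsti1 window held 2 at 0.139, below the median ratio of 0.374 over all windows. Among the others, Gpr153 had 26 and 36 CG dinucleotides in the windows of its 2 starts, whereas Zfp979 had 2 in its single window. The interferon-stimulated response element core, searched on both strands for Epsti1, occurred in 0 of the 14 member windows and in 2.98% of all windows. The E-box CACGTG, a palindrome and thus the same on both strands, was searched for Arrdc4, and its central CG also counts as a CpG. It occurred in 1 member window, that of Arrdc4, and in 6.02% of all windows. The Arrdc4 window is chr7:68749239-68749488 on the minus strand, and the capitals below mark the E-box.
Arrdc4: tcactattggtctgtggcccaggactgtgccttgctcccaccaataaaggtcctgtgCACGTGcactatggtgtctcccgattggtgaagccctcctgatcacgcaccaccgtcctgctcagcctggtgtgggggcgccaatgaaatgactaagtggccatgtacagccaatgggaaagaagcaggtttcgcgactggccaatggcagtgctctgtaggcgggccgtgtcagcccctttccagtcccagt

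Levels are given in CPM, counts per mega-count of the TMM-scaled library, and n = 3 libraries for every mean. Libraries held 28.7 to 40.8 mega-counts over genes, and 19840 to 22648 genes were detected in each. The small RNA feature Gm23935 took 0.137% to 3.98% of the counts, the most in WT-DMSO library 2. Within groups, libraries leaned to transcripts of low or high GC. The Spearman correlation of a gene's deviation from its group with transcript GC was −0.663 in KO-DTX library 1 and 0.633 in KO-DTX library 2, across 10408 genes that are not independent replicates. Itgb3 itself did not separate the lines under DMSO, at 71.4, 60.1 and 66.1 CPM in the WT-DMSO libraries and 62.4, 66.7 and 65.0 CPM in the KO-DMSO libraries (log2 difference −0.03 ± 0.08, SE; edgeR adjusted p = 0.874). In the docetaxel groups the lines did separate: Itgb3 was at 59.3, 64.6 and 63.4 CPM in KO-DTX and at 80.6, 88.7 and 80.0 CPM in WT-DTX libraries (−0.41 ± 0.08; edgeR adjusted p = 0.00765). Because the transcript was present in every library, the cells are called knockout-labelled. The free-text description of WT-DMSO library 1 speaks of the knockout, although the title and the genotype entry both give wild type. The members were chosen with that library counted as wild type, so their levels in it do not bear on its label. Without it the log2 differences between the lines under DMSO shifted by −0.25 (Zfp979) to 0.39 (Arrdc4).

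The cells had the markers of luminal mammary epithelium. Of 8 such markers, 7 averaged at least 1 CPM in both wild-type groups and 6 in both knockout-labelled groups, with summed levels of 2776 to 3534 CPM in WT-DMSO, 2496 to 3052 CPM in WT-DTX, 3439 to 3654 CPM in KO-DMSO and 2642 to 3351 CPM in KO-DTX libraries. The tight junction gene Cldn7 accounted for the difference in number: it averaged 8.95 and 7.81 CPM in the wild-type groups and 0.0741 and 0.139 CPM in the knockout-labelled groups. Cldn3 was near absent everywhere, at no more than 0.118 CPM. The leukocyte marker Ptprc, the macrophage marker Adgre1, the fibroblast marker Dcn and the endothelial marker Kdr reached no more than 0.252, 0.0651, 0.0688 and 0.0348 CPM in any library. Of 8 leukocyte markers 3 averaged at least 1 CPM in every group, Cd3e, Cd68 and Csf1r, and the fibroblast marker Pdgfra had a median of 17.7 CPM. In RNA from whole cultures, fewer cells of a type and less RNA per cell cannot be told apart, so a low value may mean low expression in every cell or expression in few of them.

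In the comparison of the lines, 7 members were higher in the knockout-labelled cells and 3 in the wild-type cells, under both treatments. The 6 libraries of the higher line did not overlap the 6 of the other line for any of the 10 genes. The choice of the members on this difference makes that likely. The share of all tested genes without overlap was not counted, so nothing is read from it. Between the lines, 9 of the 10 differed by at least 8-fold in the same direction under DMSO and after docetaxel, a size reached by 0.322% of all tested genes. The exception was Ngfr. Taking near absent as below 1 CPM in every library of a line, and on as at least 1 CPM in every library of the other with a mean of at least 5 CPM, 7 of the 10 were on in 1 line and near absent in the other, against 0.0772% of all tested genes. Closest to this limit were Iqgap2, at 0.688 to 1.44 CPM in the wild-type libraries and hence outside it, and Epsti1, at 0.365 to 0.764 CPM in the knockout-labelled libraries and hence inside. Closest to the mean of 5 CPM were Gpr153, Ldhb and Zfp979, at 5.32, 5.39 and 5.41 CPM in their higher line. Zfp979 met it only with KO-DTX library 1, without which its mean was 4.42 CPM and 6 of the 10 remained. Across all tested genes, the test of the lines called 6.6% higher and 9.2% lower in the knockout-labelled line when given DMSO, and 2.5% higher and 3.39% lower after docetaxel. Because these contrasts chose the members, nothing is read from the shares.

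**Figure D1:**
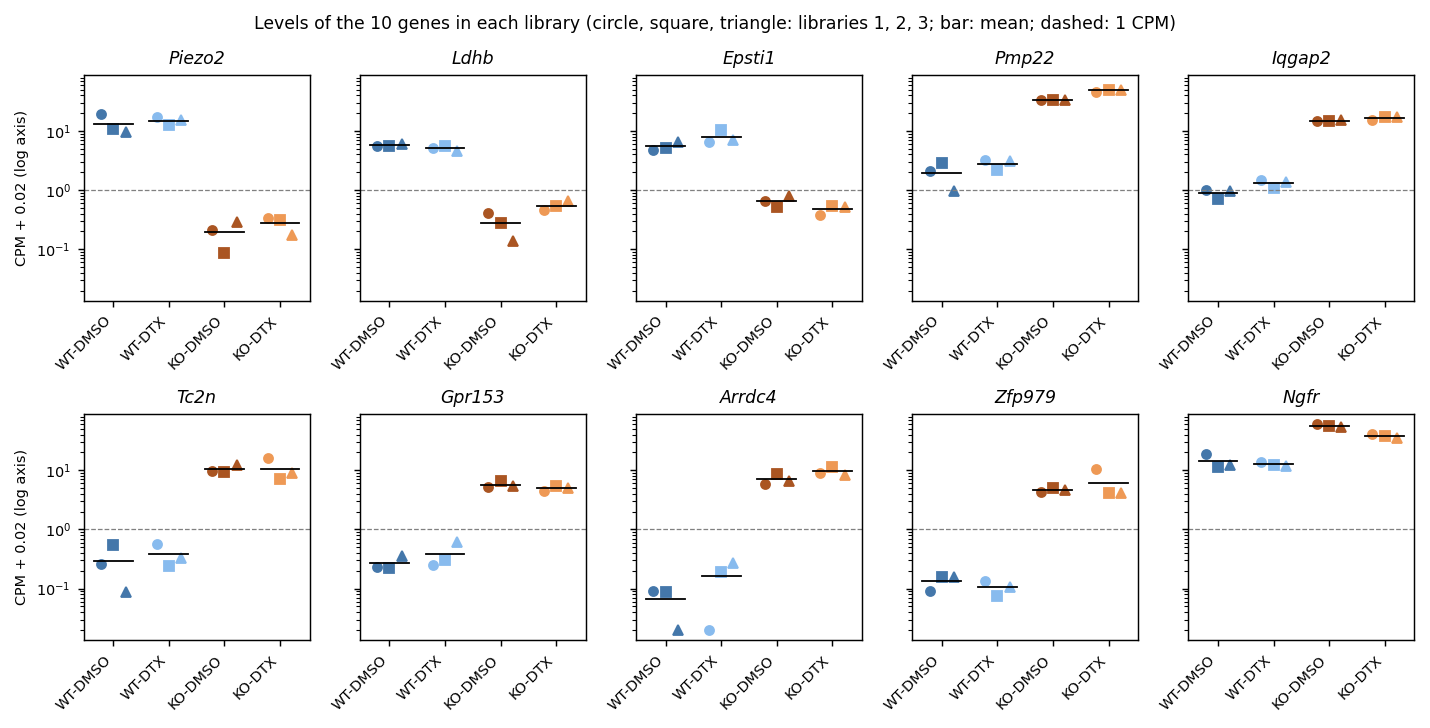
Level of each of the 10 genes in every library, in CPM plus 0.02 on a log axis, by group (circle, square and triangle for libraries 1, 2 and 3, bar for the mean of 3, dashed line at 1 CPM). Piezo2, Ldhb and Epsti1 sit above 1 CPM in all 6 wild-type libraries and below it in all 6 knockout-labelled libraries, and Tc2n, Gpr153, Arrdc4 and Zfp979 show the reverse.

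Piezo2 had the largest decrease of the set in the knockout-labelled line. On chromosome 18 it occupies 63010213 to 63387183, minus strand (ENSMUSG00000041482.17). Its level was 19.2, 10.8 and 9.52 CPM in the WT-DMSO libraries and 16.9, 12.7 and 15.05 CPM in the WT-DTX libraries. It was 0.192, 0.0651 and 0.264 CPM in the KO-DMSO libraries and 0.320, 0.288 and 0.157 CPM in the KO-DTX libraries. All wild-type libraries were thus high and all knockout-labelled libraries low, and WT-DMSO library 1 was 1.88 times the mean of the other 2. The knockout-labelled cells held 1.35% of the wild-type level under DMSO (95% counting interval 0.784% to 2.17%, from 17 counts against 1147) and 1.77% after docetaxel (1.18% to 2.55%). The log2 differences were −6.19 ± 0.38 and −5.81 ± 0.35 (SE). Here and below, a counting interval holds only the noise of counting. It leaves out the spread between libraries and is thus too narrow as a range for the difference between lines.

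Docetaxel changed Piezo2 by 0.18 ± 0.24 on the log2 scale in wild-type cells (edgeR adjusted p = 0.610) and 0.56 ± 0.60 in knockout-labelled cells (edgeR adjusted p = 0.574), neither of which passed the test. The value in wild-type cells was −0.01 without WT-DMSO library 3. Its relative Piezo1, the other mechanically gated Piezo channel, was present in both lines at 299 ± 6.96 CPM in WT-DMSO and 242 ± 10.7 CPM in KO-DMSO libraries (mean ± SD). In the knockout-labelled line Piezo1 was lower, with log2 differences of −0.30 ± 0.08 under DMSO (edgeR adjusted p = 0.0234) and −0.42 ± 0.08 after docetaxel (edgeR adjusted p = 0.00727). Under DMSO that call was lost without WT-DMSO library 3 (adjusted p = 0.0577), KO-DMSO library 2 (0.0711) or KO-DMSO library 3 (0.0935), and after docetaxel without WT-DTX library 3 (0.0543). Of 10 tested mechanically gated channel genes, including Stom, a membrane scaffold that tunes such channels, 2 were lower and 0 higher in the knockout-labelled line given DMSO, and 2 fell and 0 rose with docetaxel in wild-type cells.

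Ldhb followed the same direction at a lower level. Its annotated position is chromosome 6, 142490249 to 142507957, minus strand (ENSMUSG00000030246.11). Its level was 5.49, 5.57 and 6.04 CPM in the WT-DMSO libraries and 5.11, 5.56 and 4.55 CPM in the WT-DTX libraries. It was 0.384, 0.261 and 0.118 CPM in the KO-DMSO libraries and 0.434, 0.518 and 0.629 CPM in the KO-DTX libraries. The lines did not overlap, and within the knockout-labelled line all 3 docetaxel libraries were above all 3 DMSO libraries. The knockout-labelled cells held 4.38% of the wild-type level under DMSO (counting interval 2.78% to 6.59%) and 10.2% after docetaxel (7.61% to 13.4%).

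With docetaxel, the log2 change of Ldhb in knockout-labelled cells was 1.04 ± 0.34, from 24 to 57 counts over 3 libraries, and missed the threshold (edgeR adjusted p = 0.0525). It passed with DESeq2 (adjusted p = 0.0413) and without KO-DMSO library 1 (0.0234). In wild-type cells the change was −0.17 ± 0.20 (edgeR adjusted p = 0.572). The difference between the docetaxel effects was 1.21 ± 0.40, with an unadjusted p of 0.00868 and an edgeR adjusted p of 0.332, so it did not pass. The muscle-type subunit gene Ldha was abundant in both lines, at 1100 ± 62.1 CPM in WT-DMSO and 1192 ± 12.2 CPM in KO-DMSO libraries, and the lines did not differ by the test under DMSO (log2 difference 0.12 ± 0.10; edgeR adjusted p = 0.487). With docetaxel Ldha fell by 0.47 ± 0.10 on the log2 scale in knockout-labelled cells (edgeR adjusted p = 0.0064), where Ldhb had a positive value.

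Of 14 tested genes of lactate and pyruvate handling, 7 fell and 0 rose with docetaxel in each line, with median log2 changes of −0.24 (wild type) and −0.25 (knockout-labelled), beside 0.02 and 0.00 over all tested genes. Pkm, the pyruvate kinase of proliferating cells, fell from 3865 ± 452 to 2666 ± 299 CPM in wild-type cells (edgeR adjusted p = 0.00625) and from 4004 ± 24.7 to 2622 ± 416 CPM in knockout-labelled cells (edgeR adjusted p = 0.00464). Between the lines under DMSO, 3 of the 14 were lower in knockout-labelled cells and 0 higher.

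Epsti1 was the third member high in the wild-type line. The gene (ENSMUSG00000022014.15) spans 77904239 to 78002657 of chromosome 14, plus strand. Its level was 4.83, 5.13 and 6.52 CPM in the WT-DMSO libraries and 6.61, 10.3 and 7.11 CPM in the WT-DTX libraries. It was 0.639, 0.489 and 0.764 CPM in the KO-DMSO libraries and 0.365, 0.518 and 0.503 CPM in the KO-DTX libraries. In wild-type cells every docetaxel library was above every DMSO library, while in knockout-labelled cells the groups overlapped. The knockout-labelled cells held 11.5% of the wild-type level under DMSO (counting interval 8.7% to 15.1%) and 5.65% after docetaxel (4.16% to 7.51%).

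The docetaxel change of Epsti1 was 0.55 ± 0.20 in wild-type cells (edgeR adjusted p = 0.0575) and −0.47 ± 0.31 in knockout-labelled cells (edgeR adjusted p = 0.338). The first passed the threshold without WT-DMSO library 3 (0.0427) or WT-DTX library 1 (0.0488). The difference between these effects, −1.02 ± 0.37, had an unadjusted p of 0.0162 and an edgeR adjusted p of 0.368. A list of 20 interferon response genes that does not include Epsti1 had other values in knockout-labelled cells: 17 rose, 0 fell and 3 did not pass, with a median log2 fold change of 1.45. In wild-type cells 14 rose, 1 fell and 5 did not pass, with a median of 0.68. Oasl2, an interferon-induced relative of the oligoadenylate synthetases, rose from 107 ± 22.9 to 385 ± 51.8 CPM in knockout-labelled cells (edgeR adjusted p = 1.02e-05) and from 258 ± 54.7 to 444 ± 51.6 CPM in wild-type cells (edgeR adjusted p = 0.00451). Ddx58, the RNA sensor RIG-I, rose from 86.4 ± 12.9 to 168 ± 9.89 CPM in knockout-labelled cells (edgeR adjusted p = 0.000246), and Irf1, a transcription factor of the response, changed by 0.32 ± 0.16 there without passing (edgeR adjusted p = 0.189).

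Between the lines under DMSO, 15 of the 20 interferon response genes were lower in knockout-labelled cells and 0 higher, with a median log2 difference of −1.02, so the low Epsti1 there stood beside a lower list. After docetaxel 1 of the 20 was lower, with a median of −0.25. That count ranged from 0 to 9 over the alternatives: it was 9 without a filter, 3 with DESeq2 or the GC correction, 0 without KO-DMSO library 3 or any single docetaxel library, 2 without KO-DMSO library 1 or WT-DMSO library 2 or 3, and 3 without WT-DMSO library 1. Meanwhile the log2 difference of Epsti1 went from −3.11 ± 0.25 to −4.12 ± 0.26. For the interaction 0 of the 20 passed in edgeR, 12 having an unadjusted p under 0.05, but the number was 6 with DESeq2, 13 without a filter on low counts and 7 without WT-DMSO library 1, all with the larger change in knockout-labelled cells. Epsti1 was called in none of these 3.

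**Figure D2:**
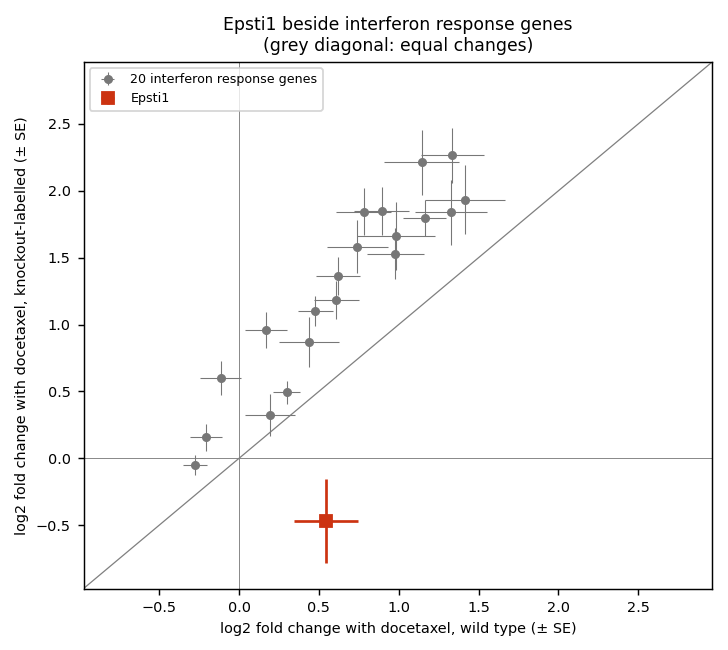
Log2 fold change with docetaxel in wild-type cells (horizontal) against knockout-labelled cells (vertical), with bars of ± 1 SE, for 20 interferon response genes (grey circles) and Epsti1 (red square). All 20 list genes lie above the diagonal of equal changes, and Epsti1, at 0.55 and −0.47, lies below it.

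Ngfr was the member with the smallest difference between lines. On chromosome 11 it occupies 95568818 to 95587735, minus strand (ENSMUSG00000000120.6). Its level was 19.0, 11.4 and 12.5 CPM in the WT-DMSO libraries and 13.8, 12.4 and 11.9 CPM in the WT-DTX libraries. It was 60.2, 55.5 and 53.5 CPM in the KO-DMSO libraries and 40.7, 38.3 and 34.4 CPM in the KO-DTX libraries. The receptor gene was thus on in both lines, and every KO-DTX library was below every KO-DMSO library. The wild-type cells held 25.3% of the knockout-labelled level under DMSO (counting interval 23.8% to 26.9%) and 33.3% after docetaxel (31.3% to 35.5%), with log2 differences of 1.98 ± 0.16 and 1.57 ± 0.15. WT-DMSO library 1 was highest of its group here, as for Piezo2, and without it the difference under DMSO was 2.24.

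Ngfr was the only member called for docetaxel in knockout-labelled cells. Its level fell from 56.4 ± 3.41 to 37.8 ± 3.19 CPM, a log2 change of −0.58 ± 0.15 (edgeR adjusted p = 0.0168). The call was lost without KO-DMSO library 1 (adjusted p = 0.0620), KO-DMSO library 2 (0.0542) or KO-DTX library 3 (0.0765), and with a correction for transcript GC (−0.43, 0.0801). In wild-type cells the change was −0.17 ± 0.16 (edgeR adjusted p = 0.455) and turned to 0.09 without WT-DMSO library 1. The interaction was −0.41 ± 0.21 (edgeR adjusted p = 0.490), and −0.67 without that library (0.0292). Basal and myoepithelial markers, a class in which Ngfr is often counted, summed to 39.6 to 44.1 CPM in WT-DMSO, 62.7 to 81.5 in WT-DTX, 49.3 to 56.2 in KO-DMSO and 51.7 to 82.5 CPM in KO-DTX libraries. Most of this was Krt14, at 40.2, 65.0, 50.5 and 56.4 CPM on average in these groups, and Krt17 averaged 0.687, 6.57, 1.07 and 8.15 CPM, higher after docetaxel in both lines. Krt5, Trp63 and Acta2 reached no more than 0.115, 0.547 and 0.388 CPM, and the part of these markers in the Ngfr result was not tested.

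Of 10 tested neurotrophins, receptors and p75 partners, 0 were higher and 1 lower in the knockout-labelled line without drug. The most abundant were Arhgdia, a binding partner of p75, at 575 and 639 CPM in WT-DMSO and KO-DMSO, and Maged1 and Bex3, adaptors of p75 signalling, at 493 and 550 CPM and at 105 and 125 CPM. None of these 3 passed the test between the lines under DMSO (edgeR adjusted p = 0.317, 0.167 and 0.414). Sorcs2, a sortilin-family coreceptor of p75 chosen after its values were seen, was the 1 lower gene, at 22.1 ± 1.38 CPM in WT-DMSO and 8.23 CPM in KO-DMSO libraries (log2 difference −1.43 ± 0.14; edgeR adjusted p = 1.06e-05). With docetaxel 1 rose and 2 fell in knockout-labelled cells. Sorcs2 was 1 of those that fell, by 1.22 ± 0.15 on the log2 scale (edgeR adjusted p = 6.8e-05). Maged1 was the other, at −0.22 ± 0.07 (edgeR adjusted p = 0.0498), a call that 17 of 22 alternatives lost. Over the alternatives 0 to 1 of the list rose and 1 to 2 fell there.

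Gpr153 was near absent in wild-type cells. Its annotated position is chromosome 4, 152274232 to 152285337, plus strand (ENSMUSG00000042804.13). Its level was 0.209, 0.206 and 0.338 CPM in the WT-DMSO libraries and 0.226, 0.281 and 0.597 CPM in the WT-DTX libraries. It was 5.24, 6.48 and 5.35 CPM in the KO-DMSO libraries and 4.48, 5.47 and 4.91 CPM in the KO-DTX libraries. The 2 lines were separate, and within each line the treatments overlapped. The wild-type cells held 4.43% of the knockout-labelled level under DMSO (counting interval 2.75% to 6.78%) and 7.48% after docetaxel (5.26% to 10.4%). Docetaxel gave log2 fold changes of 0.54 ± 0.40 in wild-type cells (edgeR adjusted p = 0.342) and −0.20 ± 0.22 in knockout-labelled cells (edgeR adjusted p = 0.578). Of 15 other tested orphan receptors, edgeR called 0 between the lines under DMSO (3 at an unadjusted p under 0.05; DESeq2 0) and 0 after docetaxel (2 unadjusted; DESeq2 1). The most abundant of them, Gprc5a, Gpr107 and Gpr137b, averaged 70.8, 54.3 and 43.9 CPM in WT-DMSO and 73.4, 49.2 and 43.0 CPM in KO-DMSO libraries.

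Pmp22 was low but present in the wild-type cells and high in the knockout-labelled cells, second to Ngfr of the members there under DMSO and first after docetaxel, in CPM and per kilobase. The gene (ENSMUSG00000018217.12) spans 63128982 to 63159547 of chromosome 11, plus strand. Its level was 2.05, 2.86 and 0.946 CPM in the WT-DMSO libraries and 3.19, 2.14 and 3.04 CPM in the WT-DTX libraries. It was 33.2, 32.7 and 33.4 CPM in the KO-DMSO libraries and 46.0, 49.6 and 49.4 CPM in the KO-DTX libraries. The KO-DTX libraries were all above the KO-DMSO libraries, whereas the wild-type groups overlapped. The log2 difference between the lines was 4.08 ± 0.24 under DMSO and 4.11 ± 0.23 after docetaxel, the closest pair of values in the set.

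With docetaxel, Pmp22 had log2 fold changes of 0.55 ± 0.19 in knockout-labelled cells (edgeR adjusted p = 0.0666) and 0.52 ± 0.26 in wild-type cells (edgeR adjusted p = 0.155). The first passed with DESeq2 (adjusted p = 0.0314), in a fit of only the 6 libraries of the contrast (0.00137), and without WT-DMSO library 2 (0.0210) or 3 (0.00689). The second passed without WT-DMSO library 2 (0.0201). The difference between the effects was 0.03 ± 0.33 (edgeR adjusted p = 0.984). Markers of Schwann and neural crest cells summed to 170 to 213 CPM in WT-DMSO, 117 to 134 CPM in WT-DTX, 168 to 205 CPM in KO-DMSO and 146 to 165 CPM in KO-DTX libraries. Of 8 such markers, 3 averaged at least 1 CPM in each DMSO group and 2 in each docetaxel group, Cdh19 was at 0 in every library, and S100b reached no more than 0.391 CPM. Their part in the Pmp22 values was not tested.

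Among 13 tested genes of the PMP22 and EMP family and of myelin, 3 were higher and 1 lower in knockout-labelled cells under DMSO. Emp1, of the EMP family to which Pmp22 is related, was at 717 ± 30.0 CPM in WT-DMSO and 705 ± 11.9 CPM in KO-DMSO libraries, and Emp2 had a log2 difference of −0.37 ± 0.08 (edgeR adjusted p = 0.00679). Emp3 and Egr2, named after their values were seen, were higher, by 0.85 ± 0.16 and 1.20 ± 0.23 (edgeR adjusted p = 0.00313 and 0.00302). After docetaxel their differences of 0.23 ± 0.16 and 0.46 ± 0.23 did not pass (edgeR adjusted p = 0.493 and 0.311). Mal, a raft protein of myelin and epithelia, fell with docetaxel in both lines, by 1.10 ± 0.10 and 0.84 ± 0.10 on the log2 scale (edgeR adjusted p = 7.45e-06 and 6.55e-05), where Pmp22 had positive values. Mal2, a transcytosis protein of epithelia chosen after its values were seen, had an on and off pattern of its own: 0.285 ± 0.106 CPM in WT-DMSO and 22.7 ± 2.29 CPM in KO-DMSO libraries (log2 difference 6.29 ± 0.21; edgeR adjusted p = 7.16e-10).

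Iqgap2 gave the only call for docetaxel in wild-type cells. On chromosome 13 it occupies 95627177 to 95891922, minus strand (ENSMUSG00000021676.9), and F2rl2 lies within it on the plus strand. Its level was 0.973, 0.688 and 0.946 CPM in the WT-DMSO libraries and 1.44, 1.07 and 1.37 CPM in the WT-DTX libraries. It was 14.5, 14.9 and 15.01 CPM in the KO-DMSO libraries and 15.5, 17.3 and 16.9 CPM in the KO-DTX libraries. In both lines every docetaxel library was above every DMSO library, by small amounts beside the distance between the lines. The wild-type cells held 5.86% of the knockout-labelled level under DMSO (counting interval 4.59% to 7.39%) and 7.84% after docetaxel (6.54% to 9.33%).

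In wild-type cells Iqgap2 rose with docetaxel by 0.57 ± 0.18 on the log2 scale, from 76 to 137 counts (edgeR adjusted p = 0.0329). The call did not hold with DESeq2 (adjusted p = 0.0576), without a filter on low counts (0.0835), in a fit of only the 6 libraries of the contrast (0.201), or without WT-DMSO library 2 (0.150) or 3 (0.0529) or WT-DTX library 1 (0.117) or 3 (0.0957). In knockout-labelled cells the change was 0.16 ± 0.12 (edgeR adjusted p = 0.410). The interaction was −0.41 ± 0.22 (edgeR adjusted p = 0.504). The ubiquitous paralog Iqgap1 was at 677 and 711 CPM in WT-DMSO and KO-DMSO libraries and did not pass the test between the lines (edgeR adjusted p = 0.576), nor did the partners Rac1 and Calm2 (0.773 and 0.642). Of 12 tested IQGAP scaffolds and partners, 1 was higher and 1 lower in knockout-labelled cells under DMSO, and with docetaxel 3 rose in wild-type cells and 1 in knockout-labelled cells, with 0 falling in either.

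Tc2n was near absent in wild-type cells and varied widely between the KO-DTX libraries. Its annotated position is chromosome 12, 101645443 to 101718523, minus strand (ENSMUSG00000021187.14) and overlaps the pseudogene Gm16285. Its level was 0.243, 0.516 and 0.0675 CPM in the WT-DMSO libraries and 0.536, 0.225 and 0.313 CPM in the WT-DTX libraries. It was 9.78, 9.45 and 12.5 CPM in the KO-DMSO libraries and 16.0, 7.02 and 8.96 CPM in the KO-DTX libraries. KO-DTX library 1 was 2.00 times the mean of the other 2, and the treatments overlapped in both lines. The wild-type cells held 2.58% of the knockout-labelled level under DMSO (counting interval 1.65% to 3.86%) and 3.21% after docetaxel (2.26% to 4.43%).

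The docetaxel change of Tc2n was 0.02 ± 0.30 in knockout-labelled cells (edgeR adjusted p = 0.978), and −0.41 without KO-DTX library 1 (0.413). In wild-type cells it was 0.38 ± 0.64 (edgeR adjusted p = 0.698), −0.09 without WT-DMSO library 3 and −0.03 without WT-DTX library 1. Of 9 tested genes for tandem C2 domain proteins, 1 was higher and 1 lower in knockout-labelled cells under DMSO. Syt7, a calcium sensor of exocytosis, was the higher one, at 10.5 ± 0.711 CPM in WT-DMSO and 19.9 ± 3.00 CPM in KO-DMSO libraries (log2 difference 0.92 ± 0.11; edgeR adjusted p = 0.000107). Esyt1, a membrane tether, was the lower one, at −0.43 ± 0.09 (edgeR adjusted p = 0.00432).

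Arrdc4 had the largest difference between the lines under DMSO. The gene (ENSMUSG00000042659.15) spans 68736995 to 68749241 of chromosome 7, minus strand, and its promoter window holds the E-box shown above. Its level was 0.0695, 0.0688 and 0 CPM in the WT-DMSO libraries and 0, 0.169 and 0.256 CPM in the WT-DTX libraries. It was 5.82, 8.73 and 6.67 CPM in the KO-DMSO libraries and 8.91, 11.4 and 8.27 CPM in the KO-DTX libraries. The wild-type libraries held 0 to 9 counts each, and the counts of 0 in WT-DMSO library 3 and WT-DTX library 1 allow up to 0.101 and 0.0847 CPM. The knockout-labelled level was 154 times the wild-type level under DMSO (counting interval 59.9 to 567, from 677 against 4 counts) and 67.4 times after docetaxel (40.7 to 121).

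Docetaxel changed Arrdc4 by 0.43 ± 0.27 in knockout-labelled cells (edgeR adjusted p = 0.317) and by 1.55 ± 0.96 in wild-type cells (edgeR adjusted p = 0.251), where 4 counts became 15 and the ratio of 3.09 had a counting interval of 0.984 to 12.8. Its α-arrestin relative Txnip was abundant in both lines and fell with docetaxel in wild-type cells from 248 ± 97.5 to 79.7 ± 23.3 CPM (log2 fold change −1.64 ± 0.27; edgeR adjusted p = 0.000761). In knockout-labelled cells Txnip had a value of −0.66 ± 0.27 (edgeR adjusted p = 0.110). Of 12 tested genes for α-arrestins, their ubiquitin ligases and Mondo factors, 2 rose and 5 fell with docetaxel in wild-type cells, and 2 rose and 4 fell in knockout-labelled cells. The glucose transporter gene Slc2a1, in whose endocytosis Txnip acts, fell in both, by 0.45 ± 0.10 and 0.97 ± 0.10 on the log2 scale (edgeR adjusted p = 0.00569 and 3.01e-05). The ligase gene Nedd4 fell by 0.51 ± 0.10 in wild-type cells (edgeR adjusted p = 0.00197).

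Zfp979 was close to 0 in wild-type cells. On chromosome 4 it occupies 147611937 to 147642513, minus strand (ENSMUSG00000066000.12), among KRAB zinc finger genes of similar sequence, and overlaps the pseudogene Gm13155, so its counts may have been split with near-identical copies and are uncertain. Its level was 0.0695, 0.138 and 0.135 CPM in the WT-DMSO libraries and 0.113, 0.0562 and 0.0853 CPM in the WT-DTX libraries. It was 4.28, 4.98 and 4.64 CPM in the KO-DMSO libraries and 10.3, 4.03 and 4.18 CPM in the KO-DTX libraries. KO-DTX library 1 stood at 2.51 times the mean of the other 2, which were below every KO-DMSO library. The knockout-labelled level was 40.5 times the wild-type level under DMSO (counting interval 21.8 to 85.1, from 445 against 10 counts) and 77.5 times after docetaxel (40.6 to 170).

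The docetaxel change of Zfp979 in knockout-labelled cells was 0.42 ± 0.30 (edgeR adjusted p = 0.365) and turned to −0.18 without KO-DTX library 1 (0.665). In wild-type cells, on 10 and 9 counts, the ratio was 0.741 with a counting interval of 0.266 to 2.03. Of 18 listed genes, the KRAB zinc finger genes of this cluster and Trim28, 4 passed the filter on low counts. The corepressor gene Trim28 was at 337 and 407 CPM in WT-DMSO and KO-DMSO libraries, and of the cluster's genes Zfp984 averaged 18.8 and 11.4 CPM and Zfp983 2.69 and 2.43 CPM there. Both of these cluster genes were above 1 CPM on average in all 4 groups. Under DMSO 1 of the 4 tested genes was higher and 1 lower in knockout-labelled cells. Trim28 was higher by 0.27 ± 0.08 on the log2 scale (edgeR adjusted p = 0.0350), a call that 11 of 22 alternatives lost. Zfp984 was lower, at −0.72 ± 0.19 (edgeR adjusted p = 0.0208), the opposite direction to Zfp979, and 4 of 22 alternatives lost that call. Zfp978, also tested, averaged 0.0913 CPM in WT-DMSO, 0.160 in WT-DTX, 0.313 in KO-DMSO and 0.580 CPM in KO-DTX libraries. Its log2 differences, 1.73 ± 0.67 under DMSO and 1.83 ± 0.55 after docetaxel, had the direction of Zfp979. Neither passed (edgeR adjusted p = 0.0951 and 0.0693).

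Tc2n and Zfp979 have the lowest transcript GC of the set, 34.1% and 34.6%, against 46.3% to 60.7% for the others. In KO-DTX library 1, the library with the strongest tilt towards low-GC transcripts, these 2 genes had log2 ratios of 1.00 and 1.33 to the mean of the other 2 libraries, while the other 5 members high in this line had ratios of −0.21 to 0.17. In KO-DTX library 2, with the opposite tilt, they had −0.83 and −0.85, against 0.03 to 0.41 for the others. The high library 1 is part of the mean in these ratios, so they are not a second observation. Set directly beside each other, libraries 2 and 3 were at 4.03 and 4.18 CPM for Zfp979 and at 7.02 and 8.96 CPM for Tc2n. The part of GC in these values was not tested. With the GC correction the docetaxel change of Tc2n in knockout-labelled cells was −0.19.

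**Figure D3:**
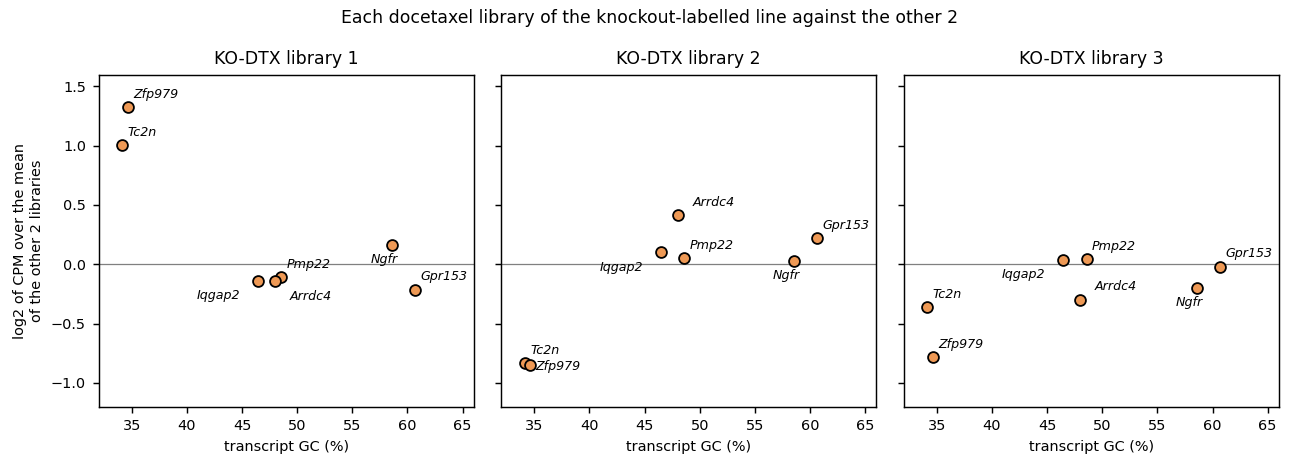
Log2 ratio of a gene's CPM in 1 KO-DTX library to the mean of the other 2 (vertical), against the GC content of its transcripts in percent (horizontal), for the 7 members high in the knockout-labelled line, with 1 panel per library. Tc2n and Zfp979, at 34.1% and 34.6% GC, are at 1.00 and 1.33 in library 1 and below 0 in libraries 2 and 3. Library 1 is part of the mean against which libraries 2 and 3 are set.

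Seen as a set, the members were on the same side of the contrast after docetaxel as under DMSO. Their choice on the lines over both treatments makes that likely, so nothing is read from it. In wild-type cells 1 of 10 rose (Iqgap2), 0 fell and 9 did not pass, where 14.5% of all tested genes rose and 13.8% fell. In knockout-labelled cells 0 rose, 1 fell (Ngfr) and 9 did not pass, where 9.09% rose and 7.0% fell. These shares are near the background. The median size of the docetaxel change over the members was 0.47 (wild type) and 0.45 (knockout-labelled) on the log2 scale, beside 0.29 and 0.23 over all tested genes, with standard errors of 0.16 to 0.96 and 0.12 to 0.60. For the interaction, edgeR called 0 of 10 and DESeq2 also 0, against 0.109% of all tested genes, and 2 members, Ldhb and Epsti1, had an unadjusted p under 0.05. The size of the difference between the lines exceeded that of either docetaxel change for every member. The members were chosen on that difference, which makes this likely, so it is no result about docetaxel. For Ngfr the difference under DMSO was 1.98, beside a docetaxel change of −0.58.

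**Figure D4:**
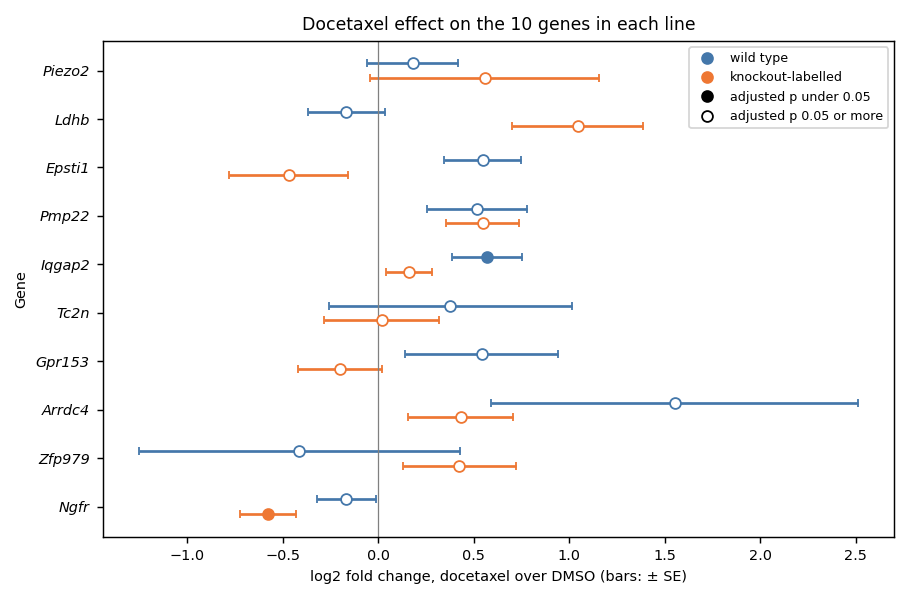
Log2 fold change with docetaxel over DMSO for the 10 genes, in wild-type (blue) and knockout-labelled cells (orange), with bars of ± 1 SE and filled symbols where the edgeR adjusted p was under 0.05. The 2 filled symbols are Iqgap2 in wild-type cells at 0.57 and Ngfr in knockout-labelled cells at −0.58.

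The differences between the lines had the same sign under DMSO and after docetaxel for all 10 genes, which the choice of the members over both treatments makes likely and which is no support of its own. Ldhb moved towards the other line after docetaxel, from −4.49 ± 0.28 to −3.28 ± 0.25, as did Gpr153, from 4.48 ± 0.31 to 3.74 ± 0.28, and Arrdc4, from 7.16 ± 0.53 to 6.04 ± 0.43. Epsti1 and Zfp979 moved apart, Zfp979 from 5.30 ± 0.48 to 6.14 ± 0.48. None of these shifts passed the interaction test. On omission of single libraries the difference after docetaxel ran from 3.48 to 4.27 (without WT-DTX library 3) for Gpr153. It ran from 5.47 to 6.76 for Arrdc4 and from 5.54 (without KO-DTX library 1) to 6.39 for Zfp979.

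**Figure D5:**
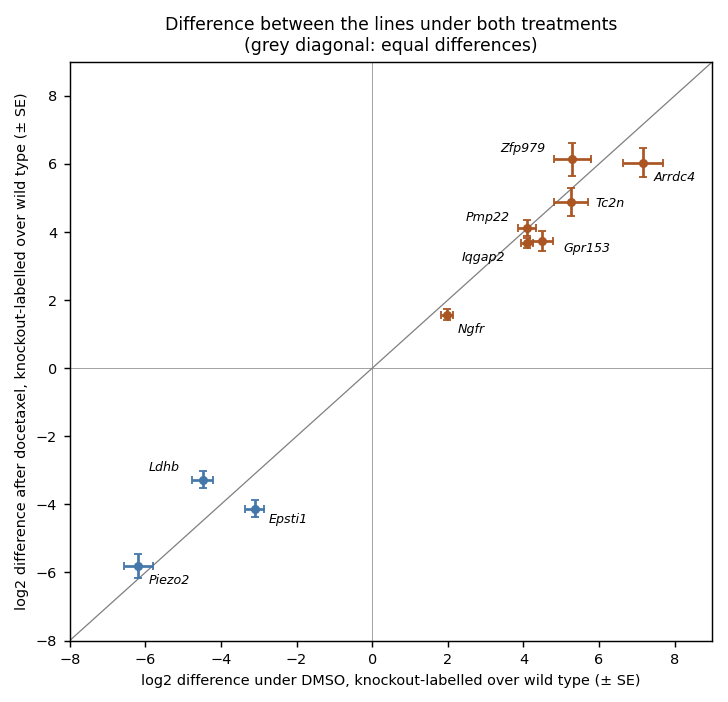
Log2 difference between the lines (knockout-labelled over wild type) under DMSO (horizontal) and after docetaxel (vertical), with bars of ± 1 SE, for the 7 genes higher in knockout-labelled cells (brown) and the 3 higher in wild-type cells (blue). All points lie near the diagonal of equal differences, from Piezo2 at −6.19 and −5.81 to Arrdc4 at 7.16 and 6.04.

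Compared per kilobase of exon under DMSO in the line where each is high, the order of levels was Ngfr at 16.4 ± 0.989, Pmp22 at 14.1 ± 0.144, Ldhb at 3.63 ± 0.190 and Iqgap2 at 2.57 ± 0.0416 CPM per kilobase. Then came Epsti1 at 2.37 ± 0.388, Arrdc4 at 1.75 ± 0.370, Tc2n at 1.73 ± 0.273, Gpr153 at 1.46 ± 0.176, Zfp979 at 1.13 ± 0.0850 and Piezo2 at 0.767 ± 0.305 CPM per kilobase. The libraries of Ngfr, Pmp22 and Ldhb did not overlap with those of the next gene in this order, nor did those of Gpr153 with Zfp979. Iqgap2 and Epsti1, Epsti1 and Arrdc4, Arrdc4 and Tc2n, Tc2n and Gpr153, and Zfp979 and Piezo2 overlapped.

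Neighbouring genes were examined to see whether a difference extended beyond the member. The nearest protein-coding gene on each side of each member gave 20 neighbours, of which 8 passed the filter on low counts. Under DMSO, 2 of the 8 were higher and 1 lower in knockout-labelled cells, each in the direction of its member. Fbln5, an elastic fibre protein gene 28.0 kb from Tc2n, averaged 0.0920 CPM in WT-DMSO, 0.433 in WT-DTX, 0.751 in KO-DMSO and 1.58 in KO-DTX libraries, with log2 differences of 2.99 ± 0.65 under DMSO (edgeR adjusted p = 0.00653) and 1.87 ± 0.47 after docetaxel (edgeR adjusted p = 0.0295). The latter call was lost without WT-DTX library 1, 2 or 3 (adjusted p = 0.0955, 0.0912 and 0.126) or KO-DTX library 1 or 3 (0.129 and 0.0780). Fbln5 averaged below 1 CPM in every group but KO-DTX, so both differences rest on low counts, and no counting interval is given.

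Phb, the prohibitin gene next to Ngfr, was higher under DMSO by 0.55 ± 0.16 (edgeR adjusted p = 0.0296), a call lost without WT-DMSO library 2 or 3 (adjusted p = 0.116 and 0.0976) or KO-DMSO library 1 or 2 (0.146 and 0.0583). After docetaxel its difference was −0.06 ± 0.16 (edgeR adjusted p = 0.899), and 1 of the 8 neighbours, Fbln5, was called there. Txnl1, on the far side of Piezo2, had a difference of −0.30 ± 0.09 that 14 of 22 alternatives lost. Of the tested neighbours without such a call, the closest were Acot7, 2.38 kb from Gpr153, at 102 and 115 CPM in WT-DMSO and KO-DMSO libraries, and Napg, 10.8 kb from Piezo2, at 15.2 and 13.2 CPM. F2rl2, inside Iqgap2, averaged 0 CPM in both wild-type groups and 0.0760 and 0.155 CPM in the knockout-labelled groups. The other 11 neighbours that were not tested averaged no more than 0.226 CPM in any group.

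The gene most alike in level across the 12 libraries, out of 10409 compared, was found for each member by the Pearson correlation of log2 CPM. For Pmp22, Tc2n and Gpr153 it was Enpp1 (r = 0.979, 0.984 and 0.979), and for Iqgap2 and Arrdc4 it was Itgb2 (0.987 and 0.982). It was Pear1 for Piezo2 (0.976), Gstm2 for Ldhb (0.983), Selenok for Epsti1 (0.981), Tspan1 for Zfp979 (0.984) and Rbm47 for Ngfr (0.992). The 12 libraries form 2 lines, so any gene that differs strongly between them scores high, and these values are a description. Itgb2, the integrin β2 gene, averaged 5.62 and 8.99 CPM in the wild-type and 47.6 and 45.1 CPM in the knockout-labelled groups, and Gstm2, a glutathione transferase gene, 25.4 and 20.7 against 1.95 and 3.48 CPM.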

How the data were processed

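Gene expression in 12 cultures was read by RNA sequencing from ribosome-depleted total RNA (RNase H), with random hexamer priming, 12 cycles of amplification and paired reads of 150 bases, per the labels' protocols. The authors deposited raw counts of reads per gene symbol; STAR 2.5.1a and featureCounts 1.4.6-p5 are named, per the submitters' processing notes. Not given in the sources used are build, annotation, strand setting and the handling of multiply mapped reads. Without strand, reads of overlapping genes cannot be told apart. The table held 40757 entries. Of these, 351 were exact repeats of another by symbol and counts (0.907% of counts, a repeat of Zfp979 among them) and were removed. All 40406 symbols matched GENCODE M21 on GRCm38, used for positions, exon lengths and GC.

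The members, gene lists and markers were chosen with earlier results of these data known. Counts were fitted with edgeR 4.0.16 in R 4.3.3: filterByExpr, TMM scaling and 1 quasi-likelihood fit over 12 libraries with 4 group means. Contrasts were docetaxel in each line, the lines under each treatment, and the interaction, two-sided, adjusted by Benjamini-Hochberg over 15538 genes and called at 0.05. The common biological coefficient of variation was 13.2%. Standard errors are |log2 change| over the root of F. Counting intervals are exact 95% binomial intervals of a ratio of summed counts and leave out the spread between libraries. Total counts were 28.7 to 40.8 mega-counts per library. P-values measure the spread between cultures of 1 pair of lines.

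Named genes were the 10 members, Itgb3, the nearest protein-coding gene on each side of a member, the 1 gene most alike (mean log2 CPM above 2), and up to 3 of the most abundant tested genes of each list. Cldn7, Sorcs2, Mal2 and genes that stand for a count were added after their values were seen. Alternatives were DESeq2 1.42.0, RLE and upper-quartile scaling, no filter, at least 1 CPM in 3 libraries, a fit of only 6 libraries, a block for replicate number, repeated entries kept, omission of WT-DMSO library 2 and KO-DTX library 3 (rich in Gm23935), omission of each library, and, added after seeing the data, a lowess correction for GC (span 0.3). The edgeR steps were tested on simulated counts. Promoters came from RefSeq. Figures were drawn with matplotlib 3.10.9.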

Additional observations from a re-analysis of the deposited data

How the results depend on the processing

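The sign of the difference between the lines held for all 10 members under all 22 alternatives, with log2 values from −6.63 to −5.82 for Piezo2 and from 6.60 to 7.55 for Arrdc4 under DMSO. The members were chosen on that difference, so the constant sign is no support of its own. The docetaxel calls changed between alternatives, and the causes were not tested. For wild-type cells the number of members called, 1 in the reported fit (Iqgap2), was 0 with DESeq2 and with the 6 libraries of the contrast alone, 2 without a filter (Epsti1 and Pmp22, Iqgap2 being lost) or with at least 1 CPM in 3 libraries (Iqgap2 and Epsti1), and 0 to 1 on omission of single libraries. The 1 was Pmp22 without WT-DMSO 2 and Epsti1 without WT-DMSO 3 or WT-DTX 1. For knockout-labelled cells it was 3 with DESeq2 (Ngfr, Ldhb and Pmp22), 2 without a filter or with 6 libraries alone (Ngfr and Pmp22), with 1 CPM in 3 libraries (Ngfr and Ldhb) or with the GC correction (Ldhb and Pmp22), and 0 to 2 on omission of single libraries. Over all tested genes in wild-type cells, DESeq2 called 4791 of 17073 and the 6 libraries alone 3274 of 14742. Without a filter 4581 of 28365 were called there, and with 1 CPM in 3 libraries 4364 of 12792. In knockout-labelled cells these settings, in that order, called 3067 of 17073, 2753 of 14702, 3051 of 28365 and 2506 of 12792 genes. With the GC correction 3078 of 15538 were called there. For the interaction the number of members called was 0, and 0 to 1 on omission of single libraries.

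Calls over all genes ranged, on omission of single libraries, from 1311 to 2881 for docetaxel in knockout-labelled cells (2499 reported), from 2 to 431 for the interaction (17 reported; 431 without WT-DMSO 1), from 1264 to 3273 for the lines under DMSO (2454 reported) and from 467 to 1083 after docetaxel (915 reported). Without the 2 libraries rich in Gm23935 the last 3 were 4, 1267 and 565. The interaction gave 154 with DESeq2, 421 without a filter and 39 with the GC correction. Docetaxel in wild-type cells gave 3035 to 4824 on omission of single libraries (4406 reported).

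Docetaxel changes whose sign turned on omission of single libraries ran, in wild-type cells, from −0.010 (without WT-DMSO 3) to 0.55 for Piezo2, from −0.089 (without WT-DMSO 3; −0.032 without WT-DTX 1) to 1.20 for Tc2n and from −0.31 to 0.091 (without WT-DMSO 1) for Ngfr. In knockout-labelled cells they ran from −0.41 (without KO-DTX 1; −0.037 and −0.055 without KO-DMSO 1 and 2) to 0.25 for Tc2n and from −0.18 (without KO-DTX 1) to 0.66 for Zfp979. Tc2n there was also −0.019 with upper-quartile scaling and −0.19 with the GC correction. The interaction ran from −0.35 to 0.36 for Pmp22 (negative without WT-DMSO 1 or 2 or WT-DTX 2, and −0.36 without the Gm23935-rich libraries) and from −1.18 to 0.11 for Tc2n (positive without WT-DMSO 3 or WT-DTX 1).

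Libraries share replicate numbers. Correlations of same-numbered libraries ran from −0.27 to 0.35 and were not above 0.1 for every pair of any contrast, so the numbers were not used as pairs. For the lines after docetaxel they ran from 0.03 to 0.35. Such correlations cannot show whether same-numbered cultures were handled together, and that was not tested. With replicate number as a block, the interaction gave 48 calls, Tc2n in knockout-labelled cells −0.062, and members called were 1, 1 and 0. Low counts limit the docetaxel values in the line where a member is near absent: Arrdc4 and Zfp979 rest on 4 to 15 counts per group there.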

Other observations

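The members are not the only genes with an on and off pattern between these lines. By the limits used above, 12 tested genes were near absent in 1 line and on in the other, 5 of them outside the set, named here after their values were seen. Ap1m2, the μ subunit of the epithelial clathrin adaptor AP-1B, was at 0 to 0.103 CPM in the wild-type libraries and at 11.3 to 16.1 CPM in the knockout-labelled libraries. Mal2, of apical transcytosis, was at 0.206 to 0.405 and 20.7 to 35.8 CPM, and Decr1, a mitochondrial reductase of fatty acid oxidation, at 0.140 to 0.608 and 3.45 to 6.29 CPM. The reverse held for 2 genes of cell junctions. Cldn7, a claudin of tight junctions, was at 7.11 to 9.32 CPM in the wild-type and 0.0294 to 0.189 CPM in the knockout-labelled libraries, and Dsc2, a desmosomal cadherin, at 9.89 to 22.2 and 0 to 0.137 CPM.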
